A study of Mus musculus with 220 samples.

Results

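Stellate cell and extracellular matrix genes were followed across the livers of 220 female F1 mice, each bred from a dam of 1 of 96 strains, inbred or recombinant inbred. The set holds 38 genes for collagen chains, proteoglycans, matrix glycoproteins, matrix proteases and their inhibitors, lysyl oxidases, and stellate cell ligands, receptors and filaments. Of the 38 genes, 36 had a probe set annotated with that gene symbol alone, and where a gene had several, the one that was brightest on average across the mice was read. Fbn1 and Thbs1 were not analysed here. Every group shared the same sires, C57BL/6J males with human transgenes for APOE-Leiden and CETP. All mice received chow until 8 weeks of age and then 16 weeks of Western diet, and were 24 weeks old at collection. One genome copy therefore came from the C57BL/6 background in every mouse, and the offspring of C57BL/6J mothers carried that background alone. Both transgenes came from the sire in every cross, with insertions that have not been mapped.

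The groups were the maternal strains: 34 BXD strains (83 mice, from the C57BL/6J by DBA/2J cross), 21 AXB/BXA strains (47 mice, A/J by C57BL/6J), 8 CXB strains (17 mice, BALB/cBy by C57BL/6By), 4 BXH strains (8 mice, C57BL/6J by C3H/HeJ) and 29 classical inbred strains (65 mice). There were 9 strains with 1 mouse, 51 with 2, 35 with 3 and 1 with 4. Among the BXD strains, the label of BXD24/TyJ-Cep290<rd16>/J (3 mice) names the rd16 mutation of Cep290. Each mouse had 1 Affymetrix HT MG-430 PM array, and all values are log2 signals after robust multi-array averaging (RMA). The median correlation of an array with the others ranged from 0.9813 to 0.9922, and no array stood apart. The hepatocyte markers Alb, Apoa1 and Ttr and the other genes of that list averaged 10.87 to 11.42 in the 220 mice, while the markers of muscle, pancreas, fat and red cells averaged 2.98 to 4.25, with 9 of those 10 genes below a mean of 4. The labels do not give litter, cage or collection day, so mice of 1 strain may share them. Tests between strains rest on the spread between such mice. Panel tests and slopes rest on the spread between strain means.

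Hepatic stellate cells lie between hepatocytes and sinusoidal endothelium and store vitamin A in the resting state. When activated they lose this store, divide, contract and secrete fibrillar collagens, proteoglycans and protease inhibitors, which makes them the main source of scar matrix in liver fibrosis. TGF-beta and PDGF are the best known ligands that drive the activated state, lysyl oxidases cross-link the deposited collagen, and matrix metalloproteinases and TIMPs set its turnover. These were whole-liver samples, in which fewer cells of a type and less RNA per cell cannot be told apart.

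The promoters of 4 genes are shown because their genes mark the opposite ends of the pattern described below. Col3a1 followed Col1a1 most closely of all genes across strains, Col6a1 and Col6a2 were the most alike pair, and Ecm1 ran against the others. RefSeq promoters (build GRCm38.p6) were at hand for 24 of the 36 genes. Each sequence is the 250 bases before the annotated start, 5′ to 3′ on the gene's strand. Col3a1 is at chr1:45311288-45311537 on the plus strand, Col6a1 at chr10:76726045-76726294, Col6a2 at chr10:76623631-76623880 and Ecm1 at chr3:95739570-95739819, all on the minus strand. Capitals mark matches on either strand. The TATA box was searched as TATAAA and the CCAAT box by the letters of its name. The GC box was searched as GGGCGG. The site of the AP-1 factors was searched as TGACTCA.
Col3a1: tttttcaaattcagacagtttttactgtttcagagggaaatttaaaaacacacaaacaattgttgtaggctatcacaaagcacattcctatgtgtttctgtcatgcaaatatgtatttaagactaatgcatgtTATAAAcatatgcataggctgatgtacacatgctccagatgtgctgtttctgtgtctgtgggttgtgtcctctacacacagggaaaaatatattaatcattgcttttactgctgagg
Col6a1: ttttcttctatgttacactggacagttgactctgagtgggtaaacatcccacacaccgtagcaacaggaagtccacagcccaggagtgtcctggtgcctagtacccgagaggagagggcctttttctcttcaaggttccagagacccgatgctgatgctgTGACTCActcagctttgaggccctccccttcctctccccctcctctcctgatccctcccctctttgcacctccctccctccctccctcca
Col6a2: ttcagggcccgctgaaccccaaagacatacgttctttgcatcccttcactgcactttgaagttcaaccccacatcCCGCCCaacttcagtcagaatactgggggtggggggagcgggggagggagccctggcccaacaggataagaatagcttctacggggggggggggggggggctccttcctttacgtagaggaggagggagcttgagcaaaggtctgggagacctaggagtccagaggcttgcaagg
Ecm1: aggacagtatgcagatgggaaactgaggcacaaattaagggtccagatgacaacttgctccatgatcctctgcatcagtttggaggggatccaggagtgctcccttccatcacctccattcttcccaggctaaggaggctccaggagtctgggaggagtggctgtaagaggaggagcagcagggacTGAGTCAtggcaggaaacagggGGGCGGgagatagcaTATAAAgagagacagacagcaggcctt
In Col3a1 the TATA box match began 117 bases before the annotated start, and in Col6a1 the AP-1 match began 90 bases before it. The GC box match of Col6a2 began 175 bases before the start. Ecm1 held an AP-1 match, a GC box match and a TATA box match that began 64, 42 and 27 bases before the start. Over all 32851 promoters of this length, 12.4% held the TATA box, 33.8% the CCAAT box, 32.7% the GC box and 4.46% the AP-1 site. Of the 27 promoters of the 24 genes, 4 held the TATA box, 8 the CCAAT box, 15 the GC box and 3 the AP-1 site. These matches describe letters in the reference sequence of C57BL/6J and were not read in the other strains.

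The first question was how much of the variation in these genes lay between maternal strains. Among 211 mice from the 87 strains that had at least 2, all 36 genes differed between strains (limma moderated F-test, Benjamini-Hochberg adjusted p under 0.05 over all probe sets), where 47.9% of the 45037 probe sets did so. Over all 17097 genes, each read from its brightest probe set like the 36, 59.2% did. The adjusted p ran from 3.66e-25 for Col6a3 to 0.00361 for Pdgfra. The share of variance between strains, the between-strain component divided by the sum of the between- and within-strain components, had a median of 0.643 over the 36 genes. Over all 17097 genes the median share was 0.251, and over genes with a mean log2 signal above 6 it was 0.464. Shares are higher for brighter probe sets, so the second of these medians is the closer yardstick for most of the 36.

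**Figure D1:**
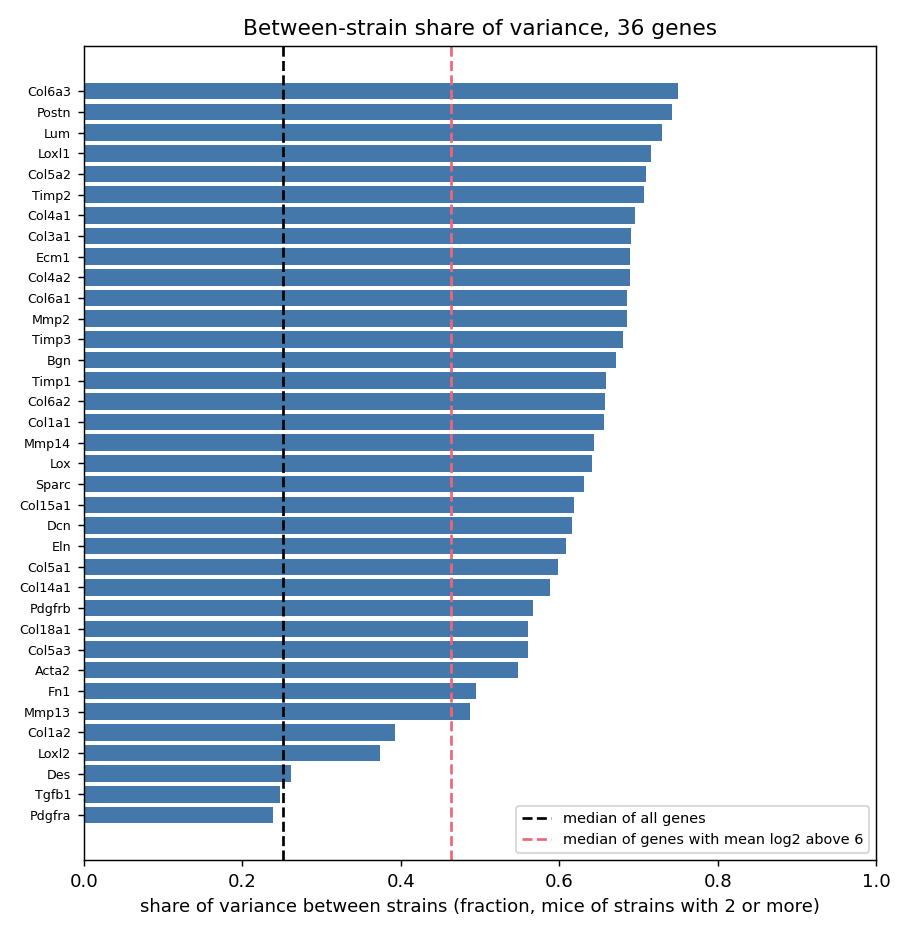
Share of variance between maternal strains (horizontal axis, fraction) for each of the 36 genes (bars), from 211 mice in 87 strains. The dashed lines are the medians of all genes (0.251) and of genes with a mean log2 signal above 6 (0.464). Col6a3, Postn, Lum and Loxl1 have the longest bars, and Pdgfra, Tgfb1 and Des the shortest.

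Among the fibrillar collagens, Col1a1, the alpha 1 chain of type I collagen, had a lowest strain mean of 3.92 in BXD55/RwwJ, a median of 5.82 and a highest of 6.81 in C3H/HeJ. The 3 BXD55/RwwJ mice had Col1a1 values of 3.61, 3.95 and 4.20, and the 2 C3H/HeJ mice 6.78 and 6.84. The mice of these strains lay far apart, with a 7.41-fold span between the strain means against a within-strain SD of 0.45 log2. Col3a1, the single chain of type III collagen, spanned 9.42 in BXD50/RwwJ to 11.85 in BXA14/PgnJ around a median of 11.34, with a share of 0.691. Its lower tail was the longer one, with the lowest strains well under the bulk and the highest close above it. Col5a2, a chain of type V collagen, spanned 5.79 in BXD50/RwwJ to 9.12 in BXH22/KccJ. Col5a1, its partner chain, had a narrower range of 6.35 to 7.96. Col5a3, another type V chain, ranged from 4.65 in AXB5/PgnJ to 6.06 in AXB8/PgnJ and took its extremes in other strains than the rest. The probe set that carries the symbol Col1a2 alone was dim, with a mean of 3.12 against a median probe-set mean of 3.46, so its range of 2.77 to 3.69 says little about the alpha 2 chain of type I collagen.

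The basement membrane and filament collagens varied as much. Col4a1 and Col4a2, the paired chains of the basement membrane collagen, spanned 7.78 to 9.95 and 6.25 to 8.48, both lowest in BXD50/RwwJ and highest in BXA14/PgnJ. Of the type VI chains, which form beaded microfibrils, Col6a3 had the largest share of variance among the 36 genes, 0.75. Its 2 BXD50/RwwJ mice read 6.99 and 7.78, its 3 BXD55/RwwJ mice 7.36, 7.37 and 7.78, and its 3 BXA14/PgnJ mice 10.01, 10.03 and 10.44. No mouse of the low strains came within 2 log2 units of a BXA14/PgnJ mouse. Col6a1 and Col6a2 ranged from 5.36 to 7.57 and from 4.95 to 7.26. Col15a1, a collagen of basement membrane zones, ranged from 3.31 in SWR/J to 5.29 in BXA14/PgnJ. Col14a1, a collagen associated with fibrils, and Col18a1, whose cleavage gives endostatin, were steadier, with spans of 2.17-fold and 1.52-fold.

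Lum, Dcn and Bgn encode small leucine-rich proteoglycans that bind collagen fibrils. Lum spanned 7.52 in BXD50/RwwJ to 10.91 in BXH22/KccJ, a 10.5-fold span with a share of 0.73. The 2 BXD50/RwwJ mice had Lum values of 6.95 and 8.08, the 3 BXD55/RwwJ mice 7.72, 8.13 and 8.50, and the 2 BXH22/KccJ mice 10.89 and 10.94. Dcn moved over a much smaller range, from 11.25 to 12.04, although its share of variance was 0.616 because its within-strain SD was 0.10. Bgn lay between them, from 9.71 to 11.38.

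Among the glycoproteins, Postn (periostin, a matricellular protein of remodelling tissue) was not lowest in the same strains as the collagens. It was lowest in BXD1/TyJ, where the 3 mice read 6.61, 7.34 and 7.34, and highest in LG/J, where they read 9.01, 9.10 and 9.12. Sparc, a collagen-binding glycoprotein, ranged from 9.13 in BXD50/RwwJ upward, with the single AXB5/PgnJ mouse highest and BXA14/PgnJ next at 10.97. Eln, the precursor of elastic fibres, was dim in most strains, with a median of 3.81, and rose to 5.14 in BXH22/KccJ. Fn1 (fibronectin), made largely by hepatocytes in liver, spanned only 11.20 to 11.74 and had its highest mean in BXD50/RwwJ, the strain lowest for most collagens. Ecm1 (extracellular matrix protein 1), a secreted glycoprotein, also had its highest mean, 9.41, in BXD50/RwwJ. Its lowest, 7.52, came from the single BXD34/TyJ mouse.

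The proteases and inhibitors held the widest spans. Mmp13, a collagenase, had the widest, 2.55 in SWR/J to 6.73 in the single BXA25/PgnJ mouse, but also the largest within-strain SD, 0.62. Mmp2 (gelatinase A) spanned 4.29 in BXD50/RwwJ to 7.93 in C3H/HeJ, and Timp1, the inducible TIMP, 4.61 in BXD50/RwwJ to 8.18 in the single C57L/J mouse. The 2 BXD50/RwwJ mice read 3.99 and 4.58 for Mmp2 and 4.26 and 4.95 for Timp1, and the 2 C3H/HeJ mice 7.92 and 7.94 for Mmp2 and 8.09 and 8.10 for Timp1. On the linear scale these strain means differed 12.5-fold for Mmp2 across its full range and 11.9-fold for Timp1 across its own. Mmp14, which activates the Mmp2 proenzyme, and Timp2, which takes part in that activation, spanned 7.53 to 8.83 and 7.10 to 9.43. Timp3, a TIMP bound to matrix, was lowest in BXD73/RwwJ (7.23) and highest in AXB10/PgnJ (9.17).

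The lysyl oxidases Lox and Loxl1 spanned 4.01 to 7.01 and 4.25 to 7.38, with shares of 0.641 and 0.716. Loxl2, a further member of the family, was near background in most strains, with a median of 3.74. It read 6.24 in the single C57L/J mouse and 5.01, 5.42 and 5.91 in the 3 BTBR T<+> tf/J mice, and the strain next below had a mean of 4.22. C57L/J was among the 5 highest strains for 11 of the 36 genes, whereas the BTBR T<+> tf/J mice had low Col1a1 values of 4.01, 5.06 and 5.34.

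As a group, the ligand, receptors and filaments had the lowest median share of variance between strains, 0.262, although Acta2 (0.548) and Pdgfrb lay well above it. Tgfb1, Pdgfra (the alpha PDGF receptor) and Des (desmin, an intermediate filament of stellate cells) had shares of 0.247, 0.239 and 0.262, near the median of all genes, and the first 2 were close to background. Pdgfrb, the PDGF receptor of activated stellate cells, had a share of 0.567 and ranged from 4.45 in SWR/J to 5.92 in C3H/HeJ. Acta2, the smooth muscle actin of activated stellate cells and of vessel walls, ranged from 5.39 in SWR/J to 8.23 in the single C57L/J mouse. The 2 SWR/J mice read 5.37 and 5.41 for Acta2 and 3.95 and 3.97 for Des. SWR/J was the lowest strain for 6 genes: Pdgfrb, Tgfb1, Acta2, Des, Col15a1 and Mmp13.

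Of the 36 genes, 18 had 2 or more probe sets. Across strain means, the second probe set of Bgn had an r of 0.985 with the one used, that of Col3a1 0.95 and that of Col18a1 0.832. Dim probe sets disagreed with the one used for several genes, among them Acta2 (mean 2.52, r = 0), Des (mean 2.67, r = -0.152) and Eln (mean 3.14, r = 0.076).

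A small number of strains held the extremes of many genes. BXD50/RwwJ had the lowest mean of all 96 strains for 16 genes, SWR/J for 6 and BXD55/RwwJ for 4. BXD55/RwwJ, BXD50/RwwJ and SWR/J were among the 5 lowest strains for 26, 25 and 24 of the 36 genes, followed by NOD/ShiLtJ with 15 and AXB2/PgnJ with 14. At the other end, AXB10/PgnJ was among the 5 highest for 17 genes, BXA14/PgnJ and C3H/HeJ for 16 each and BXH22/KccJ for 14. These strains were picked by the values shown, which are therefore a description with no test. C57BL/6J itself had a median rank of 67.5 from the highest of 96.

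**Figure D2:**
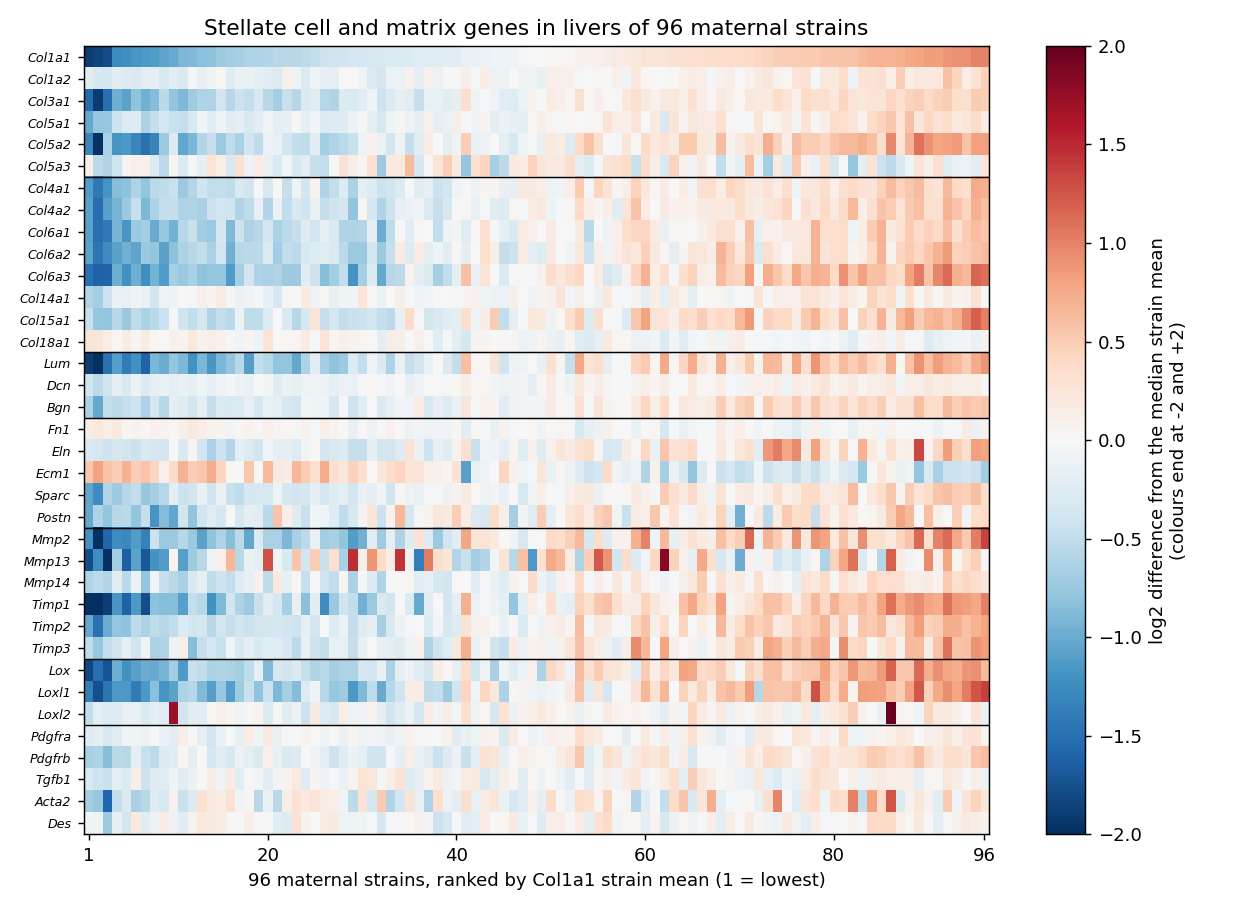
Strain means of the 36 genes (rows, grouped by role and separated by lines) in the 96 maternal strains (columns, ordered by their Col1a1 mean), coloured by the log2 difference from each gene's median strain mean. Colours stop at 2 log2 units either way. Most rows shade from blue to red with Col1a1, Ecm1 runs the other way, and the dark cells of Loxl2 are C57L/J and BTBR T<+> tf/J.

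Marker lists of liver cells also differed between the same strains. The 16 quiescent stellate cell markers averaged 5.92 in BXD55/RwwJ, 5.96 in BXD50/RwwJ and 6.11 in SWR/J. They averaged 5.87 in AXB10/PgnJ, 5.79 in BXA14/PgnJ and 5.57 in both BXH22/KccJ and C3H/HeJ, which ranked 2 and 3 from the lowest of 96. The mean log2 signal of the 8 cholangiocyte markers was 4.04 in BXD55/RwwJ, 4.30 in BXD50/RwwJ and 4.58 in SWR/J, against 6.38 in AXB10/PgnJ, 6.56 in BXH22/KccJ, 6.59 in C3H/HeJ and 7.03 in BXA14/PgnJ. Krt7 and Cftr were the 2 markers of that list with a mean under 4, and Krt19 had a mean of 4.16. The 21 macrophage and Kupffer cell markers averaged 7.90, 8.01 and 7.99 in these low strains, the 3 lowest of 96. Of the high strains, AXB10/PgnJ and BXA14/PgnJ had 8.89 and 8.90, whereas BXH22/KccJ and C3H/HeJ, at 8.55 and 8.58, ranked 36 and 40 from the lowest of 96. The 11 myofibroblast and smooth muscle markers were also lowest in SWR/J, BXD50/RwwJ and BXD55/RwwJ, at 5.37, 5.55 and 5.57, and lay between 5.85 in BXH22/KccJ and 6.03 in AXB10/PgnJ in the high strains. The 17 sinusoidal endothelial markers were highest of all strains in SWR/J, at 7.19, and ranked 2 from the lowest in BXH22/KccJ, at 6.01, while BXD50/RwwJ had 6.58 and AXB10/PgnJ 6.68. The 11 hepatocyte markers averaged 11.22, 11.29 and 11.34 in BXD55/RwwJ, BXD50/RwwJ and SWR/J, and 11.03 in AXB10/PgnJ and BXA14/PgnJ, 10.97 in C3H/HeJ and 11.14 in BXH22/KccJ. The 7 mesothelial and portal fibroblast markers, 6 of them with a mean under 4, averaged 3.12 to 3.23 in the low strains and 3.78 to 3.97 in the high strains. The 7 lymphocyte markers averaged 3.67 to 3.92 in the low strains and 3.44 to 3.93 in the high strains. The part of these cell types in the strain differences was not tested.

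Within the panels, the strain effect passed the test for 31 of the 36 genes among BXD strains (32.5% of probe sets), 29 among AXB/BXA strains (21.7%) and 33 among classical strains (35.4%). Over all genes, with 1 probe set each, these shares were 42.2%, 29% and 45.4%. In the 4 BXH strains 11 genes passed (1.15% of probe sets): Col1a1, Col5a2, Col6a3, Lum, Eln, Ecm1, Postn, Mmp2, Timp1, Lox and Loxl1. In the 7 CXB strains with 2 or more mice none passed with limma (1.71% of probe sets), with a smallest adjusted p of 0.0901, although 17 genes had an unadjusted p under 0.05, as did 17.3% of all probe sets. Leaving out the first-listed mouse of each strain reduced the count among classical strains from 33 to 16. Strains left with 1 mouse dropped out of that test, so it compared fewer strains.

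The second question was how the genes moved with one another, taking Col1a1 as the reference. Across the 96 strain means, 34 of the other 35 genes had a slope on Col1a1 that passed the limma test. Over all probe sets 46.4% passed, and over all genes 54.3%. Of the 34 genes, 31 rose with Col1a1 (21% of probe sets did) and 3 fell (25.4% did). The median Pearson r with Col1a1 was 0.839 over the 35 genes and -0.065 over all genes, whose upper decile was 0.572. The r exceeded 0.9 for 14 genes and lay between 0.8 and 0.9 for 5. In 31 of the 35 relations the permutation p of r was 1e-05, the smallest that 100000 permutations can give, and the adjusted p values given below are those of the slope over all probe sets.

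Col3a1 had the highest r with Col1a1 of all 17096 other genes. Its r was 0.954 and rho 0.947, with a slope of 0.70 ± 0.02 (SE) log2 per log2 of Col1a1 and an adjusted p of 1.84e-48 (permutation p = 1e-05). Without BXD55/RwwJ and BXD50/RwwJ, the strains farthest from the Col1a1 median, r was 0.951, and it was 0.957 within BXD, 0.93 within AXB/BXA, 0.966 within classical and 0.859 within CXB strains. Across mice of the same strain, after removing strain means, r was 0.866, so the pairing of the type I and type III chains was also present between mice of 1 maternal strain.

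The closest genes by role were Lox (r = 0.936), Col4a2 (0.926), Timp1 (0.925), Col6a3 and Lum (0.924 each), Timp2 (0.922), Col5a2 (0.92), Col4a1 (0.917), Sparc (0.913) and Bgn (0.908). Timp1 and Lum changed about as much as Col1a1, with slopes of 1.06 ± 0.04 and 1.00 ± 0.04 (SE), and Col6a3 with 0.96 ± 0.04. Without BXD55/RwwJ and BXD50/RwwJ the lowest of these r values was 0.896, for Sparc. The ligand, receptors and filaments had lower r values: 0.822 for Pdgfrb, 0.558 for Pdgfra, 0.509 for Acta2, 0.458 for Tgfb1 and 0.312 for Des. Pdgfra and Tgfb1 were close to background, with means of 3.42 and 3.64, which limits what their r can show. Within BXD strains the r of Des was 0.041, and within classical strains 0.558.

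Ecm1, Col18a1 and Fn1 fell as Col1a1 rose. For Ecm1, r was -0.763 and rho -0.807, with a slope of -0.48 ± 0.04 (SE) and an adjusted p of 2.07e-18 (permutation p = 1e-05). The r of Ecm1 was -0.762 within BXD, -0.833 within AXB/BXA, -0.702 within classical strains, and -0.614 between mice of a strain. For Col18a1 and Fn1 the r values were weaker, -0.441 and -0.383, with slopes of -0.09 ± 0.02 and -0.06 ± 0.02 (SE) and adjusted p values of 3.49e-05 and 0.000523 from limma. For Fn1 the r was -0.625 within BXD but -0.09 within AXB/BXA and -0.188 within classical strains. Col5a3 was the gene that did not pass the test, with r = 0.106 and an adjusted p of 0.397 (limma). Its r was 0.406 within BXD and -0.347 within AXB/BXA strains.

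**Figure D3:**
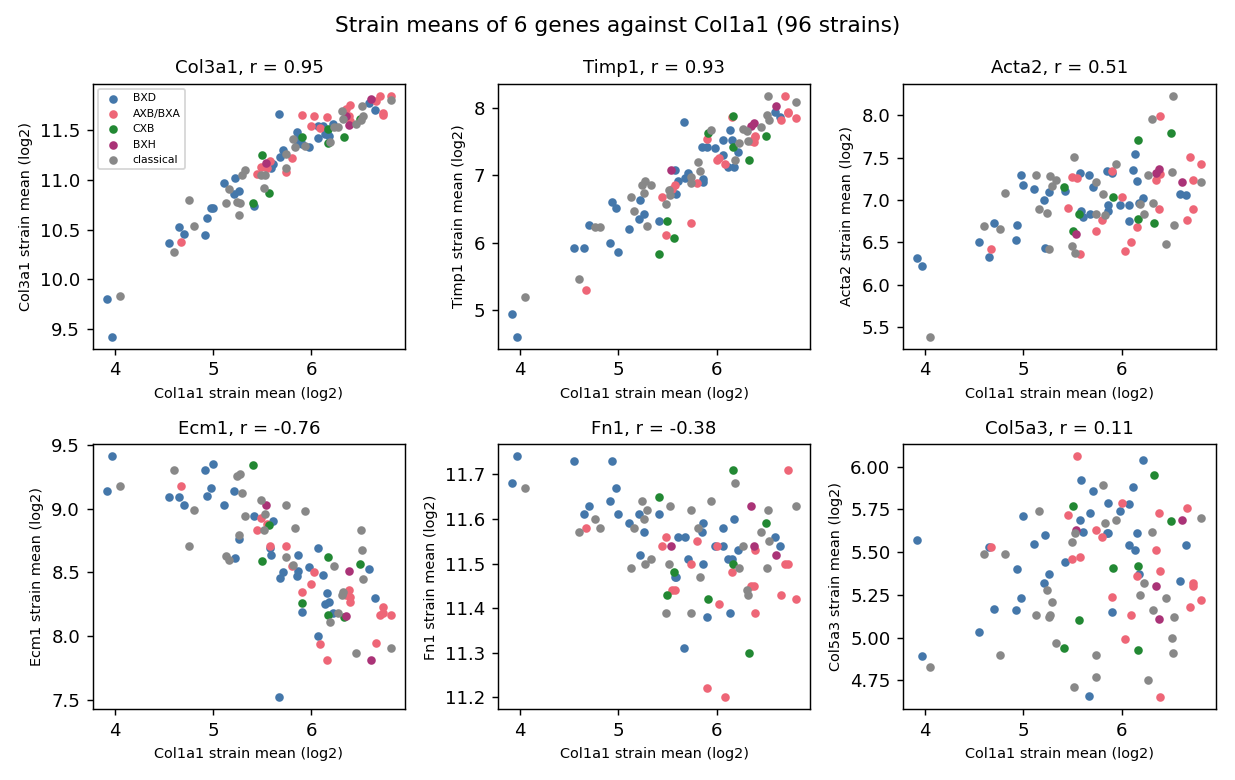
Strain means of 6 genes (vertical axes, log2) against that of Col1a1 (horizontal axes, log2), 1 point for each of 96 maternal strains, coloured by panel. Col3a1 (r = 0.954) and Timp1 (0.925) rise tightly with Col1a1, Acta2 (0.509) more loosely, Ecm1 (-0.763) and Fn1 (-0.383) fall, and Col5a3 (0.106) shows no slope that passed the test.

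Among the 630 pairs of the 36 genes, 532 had a positive r across strains, with a median of 0.55, and the median r between mice of the same strain was 0.375. Among the most alike pairs, r was 0.96 for Col6a1 with Col6a2, 0.959 for Col6a3 with Loxl1 and 0.957 for Col4a1 with Col4a2. Chains of the same collagen were not always that close: r was 0.091 for Col5a1 with Col5a3. It was 0.799 for Col1a1 with Col1a2, but the Col1a2 probe set was dim (mean 3.12), so this value says little about that chain. Mmp2 and its partner Timp2 had an r of 0.921. At the other end stood Lum with Ecm1, with an r of -0.856. Ecm1 was positively correlated with Col18a1 (0.624) and Fn1 (0.478), and Fn1 with Col18a1 (0.625). The first principal component of the 36 strain-mean profiles held 64% of their variance and the next 6.35%. These are correlations over 96 strain means that share the normalization, and arrays of the same mice lie behind each pair.

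The 10 genes outside the set with the highest r with Col1a1 were Fstl1 (0.948), Cpxm1 (0.94), Ccdc80 (0.939), Ctsk (0.929), Frzb (0.927), Svep1 (0.924), Emp1 (0.918), Plat (0.915), S100a6 (0.912) and Osmr (0.908). Fstl1 encodes a secreted follistatin-like glycoprotein, Ctsk the collagen-degrading protease cathepsin K, Plat tissue plasminogen activator and Osmr the oncostatin M receptor subunit.

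Other genes of the pathway were read from lists chosen for function. Beside the counts below, 21% of all probe sets rose with Col1a1 and 25.4% fell. Of 18 measured genes of TGF-beta and PDGF signalling, 14 rose with Col1a1 and 1 fell. Ltbp3, which binds latent TGF-beta, had an r of 0.889, and the receptors Tgfbr2 and Tgfbr1 had 0.887 and 0.864, whereas Tgfbr3, a co-receptor, fell with r = -0.509. Of 16 collagen processing genes, 12 rose and 2 fell. Plod2, a collagen lysyl hydroxylase, had an r of 0.893, and Serpinh1, the collagen chaperone HSP47, 0.868, while Bmp1, a procollagen proteinase, had -0.592. Of the procollagen proteinase enhancers, Pcolce had an r of 0.813 and Pcolce2 one of -0.538. Of 31 other matrix proteins, 25 rose and 2 fell, and tenascin C (Tnc) had an r of 0.902.

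Markers of resting and of other cell types also moved with Col1a1, where 21% of all probe sets rose and 25.4% fell. Of 16 quiescent stellate cell markers, 8 fell and 2 rose: Vipr1, a peptide receptor, had an r of -0.84, Angptl6 -0.802 and the collectin Colec10 -0.753, whereas Cygb, the stellate cell globin, had 0.835. Lrat, the enzyme that esterifies vitamin A, had an r of -0.306 with an adjusted p of 0.00626 (limma). Of 11 myofibroblast and smooth muscle markers, 3 rose, S100a6 (r = 0.912), Vim (0.774) and Lgals1 (0.752), and 2 fell, Tpm2 (-0.404) and Myh11 (-0.336), the last with a mean log2 level of only 2.99. The first 3 are also expressed by many other cells, and Tpm2 and Myh11 belong to the contractile apparatus of smooth muscle. All 8 cholangiocyte markers rose, with Epcam at 0.837 and Krt19 at 0.785. Of 21 macrophage markers, 16 rose, led by Cx3cr1 (0.837), Itgax (0.828) and Ctss (0.817). The 3 that fell were the Kupffer cell genes Clec4f (-0.494), Vsig4 (-0.408) and Timd4 (-0.271). Kupffer cell genes did not all fall: Cd5l rose (0.33), and Marco (-0.194) and Adgre1 (0.179) did not pass the test. Of 17 sinusoidal endothelial markers, 9 fell and 1 rose, with Dnase1l3 at -0.716. Of 11 hepatocyte markers, 7 fell, with Cyp2e1 at -0.717. None of 10 markers of muscle, pancreas, fat and red cells passed the test. The part of these other cell types in the slopes of the matrix genes was not tested.

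The next question was how the progenitor strains of the panels differed from C57BL/6J. For CXB, BALB/cJ and C57BL/6J stand in for the BALB/cBy and C57BL/6By substrains named above. The 4 comparisons share the same 2 C57BL/6J mice. Against C57BL/6J, 16 genes passed the test in C3H/HeJ (5.87% of probe sets did), 7 in BALB/cJ (6.94%), 1 in A/J (7.63%) and none in DBA/2J (1.86%). Over all genes, with 1 probe set each, these shares were 8.53%, 9.72%, 10.5% and 2.1%. The median difference of the 36 genes was 0.75 log2 in C3H/HeJ, 0.50 in BALB/cJ, 0.29 in A/J and -0.13 in DBA/2J, while the median over all genes lay between 0.002 and 0.011.

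In C3H/HeJ, 15 genes were higher (3.5% of probe sets were) and Ecm1 was lower (2.36%). Col1a1 read 6.78 and 6.84 in C3H/HeJ against 5.20 and 5.39 in C57BL/6J, a difference of 1.52 ± 0.44 log2 (SE; limma adjusted p = 0.0188). Mmp2 read 7.92 and 7.94 against 5.99 and 6.12, a difference of 1.87 ± 0.44 (SE; limma adjusted p = 0.00247). Each C3H/HeJ mouse was above each C57BL/6J mouse for these genes. Timp1 differed by 1.84 ± 0.48, Loxl1 by 1.63 ± 0.42, Lum by 1.49 ± 0.40 and Col15a1 by 1.32 ± 0.34. The other genes that were higher were Col1a2 (read from a dim probe set), Col5a2, Col4a1, Col4a2, Col6a3, Postn, Mmp14, Timp2 and Timp3. Ecm1 read 7.75 and 8.06 against 8.94 and 9.30, a difference of -1.21 ± 0.24 (SE; limma adjusted p = 0.000213). With 2 mice in each strain the count was fragile: leaving out any 1 of the 4 mice reduced it from 16 to between 2 and 8. Ecm1 and Mmp2 passed in all 4 of these fits and no difference changed sign.

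In BALB/cJ, Col1a2 (read from a dim probe set), Col5a2, Col6a3, Lum, Mmp2 and Timp1 were higher (3.93% of probe sets were). Ecm1, the last of the 7 genes, was lower (3.01%). The 3 BALB/cJ mice read 7.82, 7.84 and 7.95 for Ecm1, all below the 2 C57BL/6J mice, and the difference was -1.25 ± 0.22 log2 (SE; limma adjusted p = 1.61e-05). For Mmp2 they read 7.29, 7.45 and 7.82, all above C57BL/6J, and the difference was 1.47 ± 0.40 (SE; limma adjusted p = 0.0103). The differences of Timp1, Lum, Col5a2 and Col6a3 were 1.46, 1.23, 1.22 and 1.02. Leaving out 1 mouse gave 1 to 5 genes, with the fewest without the first C57BL/6J mouse, and Ecm1 passed each time. When only the 5 progenitor strains were fitted, 15 genes passed. The share of all probe sets that passed in that fit was not recorded, here or for A/J below.

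In A/J, Mmp14 passed, with 8.50, 8.66 and 8.72 against 7.80 and 7.91 in C57BL/6J, a difference of 0.78 ± 0.18 log2 (SE; limma adjusted p = 0.00197). Without the first C57BL/6J mouse its adjusted p was 0.0836, and when only the 5 progenitor strains were fitted 8 genes passed. Of the 36 genes, 15 had an unadjusted p under 0.05 in A/J, where 18.6% of all probe sets did. Col1a1 read 6.10, 6.27 and 6.32, each above both C57BL/6J mice, with a difference of 0.94 ± 0.40 and an adjusted p of 0.153 (limma). In DBA/2J, 4 of the 36 genes had an unadjusted p under 0.05, a share near the 10.8% of all probe sets, and the smallest adjusted p was 0.193. The 3 DBA/2J mice differed among themselves: Col1a1 read 4.52, 5.31 and 5.65 and Col6a3 7.73, 8.25 and 8.98, ranges that took in the C57BL/6J values.

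**Figure D4:**
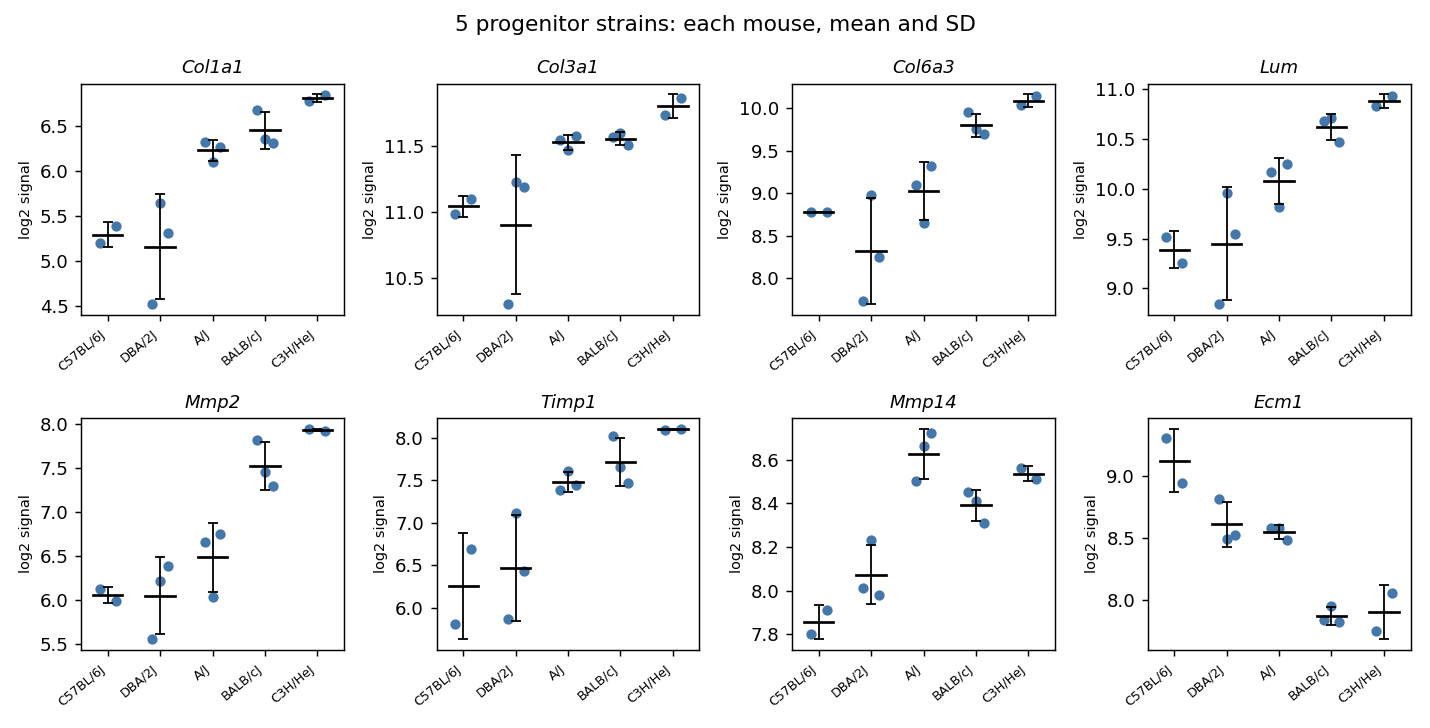
Log2 signal of 8 genes (vertical axes, scaled to each gene) in each mouse of the 5 progenitor strains, with the mean (long bar) and SD (error bar). There are 2 mice of C57BL/6J and C3H/HeJ and 3 of the others; C3H/HeJ and BALB/cJ mice lie above C57BL/6J for Mmp2 and below it for Ecm1, and DBA/2J mice spread widely.

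Marker lists of other cells differed beside these genes. Over all probe sets, 3.5% were higher and 2.36% lower in C3H/HeJ, 3.93% and 3.01% in BALB/cJ, and 4.11% and 3.52% in A/J. The mean of the 8 cholangiocyte markers was 6.55 and 6.64 in the C3H/HeJ mice, 6.13 to 6.29 in BALB/cJ and 5.04 and 5.26 in C57BL/6J. Of these 8 genes, 4 passed the test in C3H/HeJ and 1 in BALB/cJ. The BALB/cJ share, 12.5%, was near the 9.72% of all genes. The 17 sinusoidal endothelial markers averaged 5.68 to 6.12 in BALB/cJ against 6.55 and 6.70 in C57BL/6J, and 12 of them were lower in BALB/cJ, 6 in A/J and 3 in C3H/HeJ. Of the 16 quiescent stellate cell markers, 6 were lower in C3H/HeJ and 7 in BALB/cJ, with means of 5.50 and 5.64 in C3H/HeJ, 5.46 to 5.57 in BALB/cJ, and 6.00 and 6.17 in C57BL/6J. In A/J, 8 of 21 macrophage markers were higher, with means of 8.88 to 8.91 against 8.43 in each C57BL/6J mouse. Their part in the strain differences was not tested.

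The last question was whether whole panels differed. The test of any difference among the 5 panels, on 1 mean per strain, passed for Col4a2, Bgn, Sparc and Timp3, 4 of the 36 genes. Over all probe sets 6.77% passed, and over all genes 8.72%. AXB/BXA strains were higher than BXD strains for 13 genes (3.68% of probe sets) and lower for Fn1 (3.53%), together 14 of 36 (7.22% of probe sets and 9.29% of all genes). Col4a2 averaged 7.98 ± 0.39 (SD, n = 21 strains) in AXB/BXA and 7.53 ± 0.43 (SD, n = 34) in BXD, a difference of 0.45 ± 0.11 log2 (SE; limma adjusted p = 0.00741). Timp3 averaged 8.46 ± 0.46 and 8.00 ± 0.39 (SD), a difference of 0.46 ± 0.11 (SE; limma adjusted p = 0.00547). The panels overlapped widely for both genes, since strains of AXB/BXA reached down to 6.88 for Col4a2 and 7.49 for Timp3.

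The differences were 0.57 for Col1a1, 0.58 for Lum, 0.55 for Col6a3 and 0.40 for Col3a1. The other genes that were higher in AXB/BXA strains were Col5a2, Col4a1, Bgn, Sparc, Mmp14, Timp2 and Pdgfra, and the Fn1 difference was -0.09 ± 0.03 log2 (SE; limma adjusted p = 0.0231). This count moved with the set of mice: it was 4 with strains of 2 or more mice only, 2 without the first-listed mouse of each such strain, 9 without the third-listed, and 27 with values per mouse and the strain as a random block. In the same comparison 4 of 8 cholangiocyte markers and 3 of 21 macrophage markers were higher, and their part was not tested.

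The comparisons of CXB, BXH and classical strains with BXD strains share the BXD strains with the one above, and none of the 36 genes passed in any of them with limma, where 1.18%, 0.0155% and 1.01% of probe sets did. At an unadjusted p under 0.05 there were 3, 17 and 1 of the 36 genes, against 13.6%, 8.87% and 9.58% of all probe sets, so that the share of the genes was above that of all probe sets in the BXH comparison and below it in the others. All 17 genes of the BXH comparison were higher in BXH strains, and the smallest adjusted p was 0.4 with 4 strains. Col1a1 averaged 5.51 ± 0.67 (SD) in 34 BXD, 6.08 ± 0.55 in 21 AXB/BXA, 5.95 ± 0.41 in 8 CXB, 6.22 ± 0.47 in 4 BXH and 5.68 ± 0.67 in 29 classical strains. The lowest strain of each panel was BXD55/RwwJ, AXB2/PgnJ, CXB13/HiAJ, BXH6/TyJ and SWR/J, at 3.92, 4.67, 5.41, 5.54 and 4.05.

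**Figure D5:**
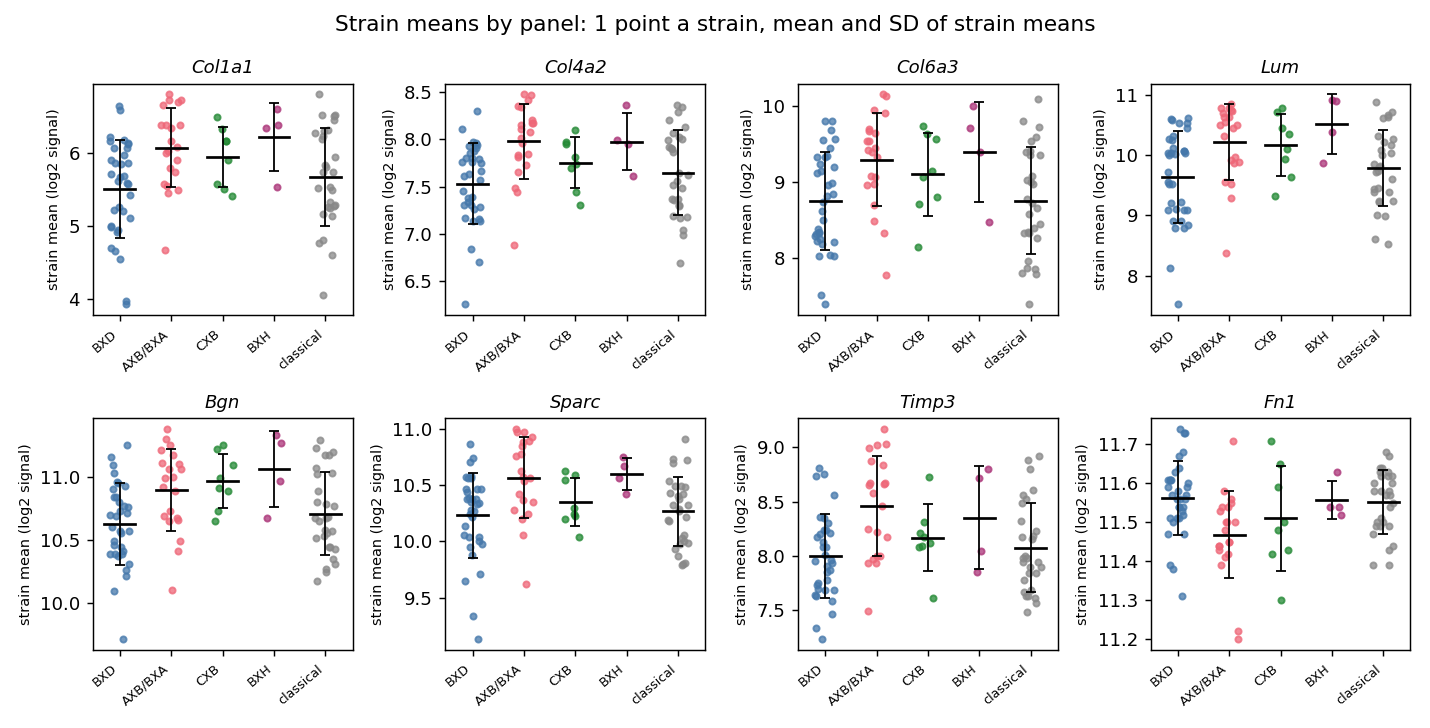
Strain means (points, log2) of 8 genes in the 5 panels, with the mean (long bar) and SD of strain means (error bar). The AXB/BXA points are shifted up from the BXD points by 0.57 for Col1a1 and 0.45 for Col4a2 but cover much of the same range, and Fn1 is shifted down by 0.09.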

How the data were processed

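Liver RNA of 220 mice was hybridised to 1 Affymetrix array each. The deposited values are log2 signals, 1 for each probe set, that the authors made with RMA, which corrects background, quantile-normalizes arrays and summarises probes. GCOS and RMA stand in the submitters' processing notes, with no version, and batch correction is not stated in the sources used here. Of 45141 rows, 104 were array controls; 45037 probe sets were analysed, and symbols came from GEO's platform annotation (28898 with 1 symbol, 551 with several, 15588 unnamed here). The number of arrays limits precision.

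Groups were the maternal strains of the labels. Fits across all probe sets used limma 3.58.1 in R 4.3.3: a moderated F-test over strains with 2 or more mice, contrasts of progenitor strains with C57BL/6J in the fit of all strains, panel contrasts and the slope on Col1a1 on 1 mean per strain, each Benjamini-Hochberg adjusted with calls at 0.05. Tests were two-sided and were tested on simulated data. The rule for named genes took every measured gene of the set, up to 4 genes of each other list by size, and the 10 genes most like Col1a1; further genes of the marker and pathway lists, and some named in place of others of larger size, were chosen after their values were seen. The set and the lists were chosen with earlier results of these data known. Alternatives were array centring, another probe set per gene, a filter on dim probe sets, a variance trend, the mouse number as covariate, blocks, subsets of strains, and leaving out mice. Scan dates and background correction could not be varied from the deposited values.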

Additional observations from a re-analysis of the deposited data

Results flagged for a closer look

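BXD20/TyJ was the only strain with 4 mice, so it was the only group in which a single mouse could be compared with the others for distance. For Mmp2 the 4 mice read 5.18, 5.29, 5.34 and 6.33, and the gap below the highest was 0.862 of the range. For Loxl1 they read 5.28, 5.65, 5.65 and 5.72, and the gap above the lowest was 0.836 of the range, both past Dixon's critical value for 4 values. All 36 genes were compared in this way, and chance flags about 1 in 20 groups.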

How the results depend on the processing

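Of 1818 values of single genes recomputed under the alternatives, 1648 stayed past the threshold, 170 missed it, and 0 of those with a direction changed sign. The 1648 include refits within a panel that left out no mouse of that panel, as within BXH strains, and so could not change. The 34 slopes on Col1a1 passed in every alternative that tested them. The count of genes passing changed by over 1.5 times in these cases. Testing only probe sets above the median signal gave 3 genes for A/J minus C57BL/6J, 13 for BALB/cJ minus C57BL/6J and 10 for the panel test, against 1, 7 and 4. The probe set with the largest SD gave 2 for A/J, and the 5 progenitor strains alone gave 8 for A/J and 15 for BALB/cJ. Strains with 2 or more mice only gave 1 for the panel test and 4 for AXB/BXA minus BXD, against 4 and 14. Values per mouse with the strain as a random block gave 24 and 27, and 1 each for CXB and classical minus BXD, against 0. The cause was not tested, except that the dim-probe filter tests fewer probe sets and the subsets hold fewer strains. The block fit used 1 within-strain correlation for all probe sets, so its counts for these genes may be too high.

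Leaving out mice gave 33 to 36 genes for the strain effect, 24 to 31 within BXD, 22 to 29 within AXB/BXA, 16 to 33 within classical and 11 within BXH strains, 0 to 10 for the panel test, 2 to 14 for AXB/BXA minus BXD, 34 for the slope, 0 to 1 for A/J, 1 to 5 for BALB/cJ and 2 to 8 for C3H/HeJ minus C57BL/6J, and 0 elsewhere. In the contrasts with C57BL/6J, a strain left with 1 mouse was assumed to vary like the others. The strain-effect tests dropped any strain left with 1 mouse and so compared fewer strains. In the panel tests and slopes such a strain kept the values of that mouse. No BXH mouse was left out in the runs behind the 11 genes within BXH strains, so that count repeats the main fit. No paired analysis was possible because replicate numbers follow accession order and pair nothing. Probe sets under the median signal (Col1a2, Pdgfra) and near it (Tgfb1, Loxl2, Eln) limit what can be read from those genes. Mice of 1 strain whose mouse numbers lay within 10 of each other differed in Col1a1 by a median of 0.37 (107 pairs), and those further apart by 0.39 (55 pairs).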

Other observations

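Further matrix genes outside the set also varied between strains and with Col1a1. Sparcl1, a matricellular relative of Sparc, had a share of variance between strains of 0.797 and ranged from 5.02 in FVB/NJ to 9.09 in the single BXA25/PgnJ mouse. Dpt (dermatopontin, which binds decorin) had a share of 0.756 and ranged from 6.56 in BXD50/RwwJ to 9.79 in BXH22/KccJ. Of all 45036 other probe sets, 46.4% passed the test of the slope on Col1a1, and the genes named for that slope were chosen after their values were seen. Of 16 matrix receptors, 8 rose with Col1a1 across the 96 strain means and 2 fell (limma slope test). The integrin subunits Itgb5 and Itgav had r of 0.876 and 0.854 and the hyaluronan receptor Cd44 0.72, whereas the heparan sulphate proteoglycans Sdc2 and Sdc4 had -0.65 and -0.402.

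Of 13 other matrix proteases and inhibitors, 7 rose with Col1a1 and 2 fell. Adamts5 had an r of 0.809, Mmp23 of 0.802 and the macrophage elastase Mmp12 of 0.735, while Reck, a membrane-anchored inhibitor of metalloproteinases, had -0.486. Of 28 other collagen chains, 8 rose and 7 fell. Over all probe sets 21% rose and 25.4% fell, and over all genes 54.3% passed. The other collagen chains thus passed about as often as genes in general.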
